A study of Homo sapiens with 6 samples.

Results

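The genes described here are 47 genes of DNA repair, chosen by name from mismatch repair, homologous recombination, the Fanconi anaemia pathway, checkpoint signalling and end joining. All 47 were among the 18236 genes of the table, and all 47 passed the filter on low values (a mean of at least 10 normalized counts over the 6 samples). RNA was measured in HCT116, a line derived from a human colorectal carcinoma, in 3 samples of each of 2 genotypes, numbered 1, 2 and 3 in the labels. The wild-type cells (CTNNB1 WT/-) kept the intact CTNNB1 allele, which encodes β-catenin, after disruption of the mutant allele. The mutant cells (CTNNB1 -/Δ45) kept the allele that lacks a codon of the N-terminal region through which β-catenin is marked for degradation, so each line was left with a single allele. Cells of both lines were grown in the same McCoy-5A medium with serum and received no treatment. Whether each line is a single clone, and whether the samples of a line came from separate cultures, is not given in the sources used here, so p-values here reflect sample-to-sample spread alone, part of which may be technical.

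As background, mismatch repair removes mispaired bases and small loops left by DNA polymerases: MutS complexes recognise the mispair, MutL complexes cut the new strand, and an exonuclease removes it. Homologous recombination repairs a broken chromosome from its sister copy: the ends are resected to single strands, and BRCA1, PALB2 and BRCA2 then act with further proteins to start the search for the intact copy. The Fanconi anaemia proteins act where the strands are covalently crosslinked: a core complex attaches ubiquitin to FANCD2 and FANCI, and the unhooked break is then passed to recombination. The kinases ATM and ATR report damage to the cell cycle, and end joining rejoins broken ends without a template. HCT116 is known as a line with defective mismatch repair, and transcript levels of repair genes are known to be highest in cycling cells.

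Promoter sequences are shown for 4 of the genes because many repair genes are cell-cycle genes, whose promoters often hold CCAAT boxes or E2F sites. They are the 250 bases before the annotated start, from RefSeq on GRCh38.p14, printed 5′ to 3′ on the strand of the gene. Capitals mark the letters CCAAT or their reverse complement ATTGG, and the E2F letters TTTCCCGC, TTTGGCGC, TTTCGCGC or TTTGCCGC or their reverse complements. No capitals in these 4 sequences overlap. BRIP1 (chr17:61863529-61863778, minus strand), BLM (chr15:90717096-90717345, plus strand) and FANCF (chr11:22625824-22626073, minus strand) were genes with higher transcript levels in the mutant line and more than 1 CCAAT match. FANCC (chr9:95317710-95317959, minus strand) did not pass the test and held 2 E2F matches.
BRIP1: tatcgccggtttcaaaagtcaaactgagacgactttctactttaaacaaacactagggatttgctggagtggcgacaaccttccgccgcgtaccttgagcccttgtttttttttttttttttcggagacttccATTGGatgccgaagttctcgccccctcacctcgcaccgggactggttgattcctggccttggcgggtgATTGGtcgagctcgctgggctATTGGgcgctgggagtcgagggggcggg
BLM: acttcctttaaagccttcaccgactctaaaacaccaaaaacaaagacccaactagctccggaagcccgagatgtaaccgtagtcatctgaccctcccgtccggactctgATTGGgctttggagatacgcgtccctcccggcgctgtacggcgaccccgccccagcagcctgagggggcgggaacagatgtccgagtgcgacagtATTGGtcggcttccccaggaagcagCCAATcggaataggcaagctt
FANCF: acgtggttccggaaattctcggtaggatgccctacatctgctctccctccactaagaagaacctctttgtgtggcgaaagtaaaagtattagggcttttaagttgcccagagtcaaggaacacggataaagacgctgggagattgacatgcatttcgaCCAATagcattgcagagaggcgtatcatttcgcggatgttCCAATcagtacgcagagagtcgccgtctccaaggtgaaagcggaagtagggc
FANCC: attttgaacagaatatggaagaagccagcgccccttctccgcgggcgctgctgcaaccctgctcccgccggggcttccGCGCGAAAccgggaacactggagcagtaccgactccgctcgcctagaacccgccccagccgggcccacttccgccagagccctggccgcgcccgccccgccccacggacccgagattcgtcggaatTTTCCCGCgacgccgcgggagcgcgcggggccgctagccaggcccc
Of the 47 genes 41 had an entry in this table, and FANCI, PRKDC, NBN, WRN, RAD54B and XRCC5 had none. CCAAT in either orientation was present in 19 of the 41 (46.3%), against 34.6% of the 11972 promoters matched to genes of the deposited data and 33% of all promoters of the table. The E2F letters were present in 4 of 41 (9.76%), namely MSH3, PMS2, FANCA and FANCC, against 3.88% and 2.79%, and their matches in MSH3 overlap each other. The letters TTTGAA or TTCAAA (the cell cycle homology region, not capitalised above) were present in 3 of 41 (7.32%), against 9.21% and 13.6%. Of the 13 genes called higher in the mutant with a promoter entry, 5 held CCAAT (38.5%) and 0 held the E2F letters. Of the 28 others 14 (50%) and 4 did. Among these 28, XRCC3 held 5 CCAAT matches, and CHEK2 and CLSPN held 3 each. These matches describe the letters in this window and nothing about binding. Each window rests on 1 annotated start per gene, and whether the cells use that start was not tested.

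The samples held 21.8 to 57.9 M reads in genes. CTNNB1 itself, whose transcript is made in both lines, read 18594, 12532 and 12923 normalized counts in wild-type samples 1, 2 and 3 and 18704, 17838 and 18582 in the mutant samples, and did not pass the test (log2 fold change 0.35 ± 0.18, SE, limma adjusted p = 0.150). Both samples numbered 1 stood apart from their lines. The SD over all genes of the log2 difference between wild-type sample 1 and mutant sample 1 was 0.51, smaller than between wild-type sample 1 and wild-type samples 2 (0.67) and 3 (0.74) or between mutant sample 1 and mutant samples 2 (0.84) and 3 (0.85). Samples 2 and 3 differed by 0.34 within the wild-type line and by 0.27 within the mutant line, and by 1.42 and 1.46 between lines at the same number. Results are therefore given with and without the samples numbered 1. Over the 14539 tested genes the log2 fold change had a median of 0.24 with the deposited scaling and 0.01 with edgeR, DESeq2 or TMM factors, so the changes of the repair genes are to be read against that shift. Of all genes limma called 2517 higher and 1459 lower, edgeR 1783 and 1625, and limma with TMM factors 2173 and 2130. Of the epithelial markers KRT8, KRT18, KRT19 and EPCAM lay at 3266 normalized counts or above in every sample, while CDH1 lay between 472 and 1647 and CDX2 between 202 and 672. The gut markers VIL1 and KRT20 reached at most 39.97 and 37.1, and CDX1, CDH17 and LGALS4 did not exceed 17.2. Of the markers of fibroblasts, endothelium and blood, FAP reached at most 1.23, PECAM1 4.25 and PTPRC 4.43, while COL1A1 (1735 to 4371), CD68 (676 to 5234), COL3A1 (20.2 to 127), PDGFRB (188 to 246), VWF (46.5 to 139) and HBA1 (14.4 to 31.0) had reads in every sample.

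The comparison of the lines asked which repair genes differ between cells with mutant and cells with intact β-catenin. Of the 47 genes 14 were higher in the mutant line, XRCC4 alone was lower, and 32 did not pass the test (limma, adjusted p under 0.05 over all genes). The 14 are 29.8% of the list, against 17.3% of all genes called higher, and the single lower gene stands against 10.0% of all genes called lower. The genes that rose were MLH3 of mismatch repair, BRCA1, BARD1, RAD51C and XRCC2 of homologous recombination, the helicases BRIP1 and BLM, FANCF, FANCI and FANCL of the Fanconi pathway, ATRIP, CHEK1 and TOPBP1 of checkpoint signalling, and LIG4 of end joining. Their log2 fold changes ran from 0.84 for CHEK1 to 4.05 for FANCF. The median over the 47 was 0.84, against 0.24 over all genes, and 0.62 against 0.01 with edgeR. With edgeR 11 genes (23.4%) were called higher, against 12.3% of all genes, and XRCC4 was again the single lower gene (11.2% of all genes). With DESeq2 21 genes (44.7%) were called higher, against 21.7% of all genes, and XRCC4 was lower (20.6% of all genes). The mutant samples all lay above the wild-type samples in 15 genes (31.9%), near the 26.6% of all genes, and all below them in XRCC4 alone (19.1% of all genes).

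These calls depended on which samples were in the fit. Without both samples numbered 1, limma called 44 of the 47 higher (93.6%, against 53.2% of all genes) and XRCC4 lower (against 29.1% of all genes), and the median was 1.31 against 0.39. Without wild-type sample 1 alone 34 of the 47 were called higher, beside 4968 of all 14498 genes tested (34.3%). Without mutant sample 1 alone 35 of the 47 were, beside 5187 of all 14570 genes tested (35.6%). XRCC4 was lower in both fits, against 15.3% and 21.3% of all genes. Without any of the other 4 samples (wild-type 2, wild-type 3, mutant 2 or mutant 3) limma called 0 of the 47. In these fits 16, 17, 17 and 17 of the 47 had an unadjusted p under 0.05, of which 15, 16, 16 and 16 were higher. Of all genes 4157 of 14541, 4333 of 14547, 4229 of 14538 and 4317 of 14529 had such a p in either direction. The smallest limma adjusted p of the 47 was 0.161, 0.150, 0.150 and 0.149. Neither edgeR nor DESeq2 was run with a single sample left out. In the same 4 fits 0, 0, 6 and 5 of all genes were called higher.

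**Figure D1:**
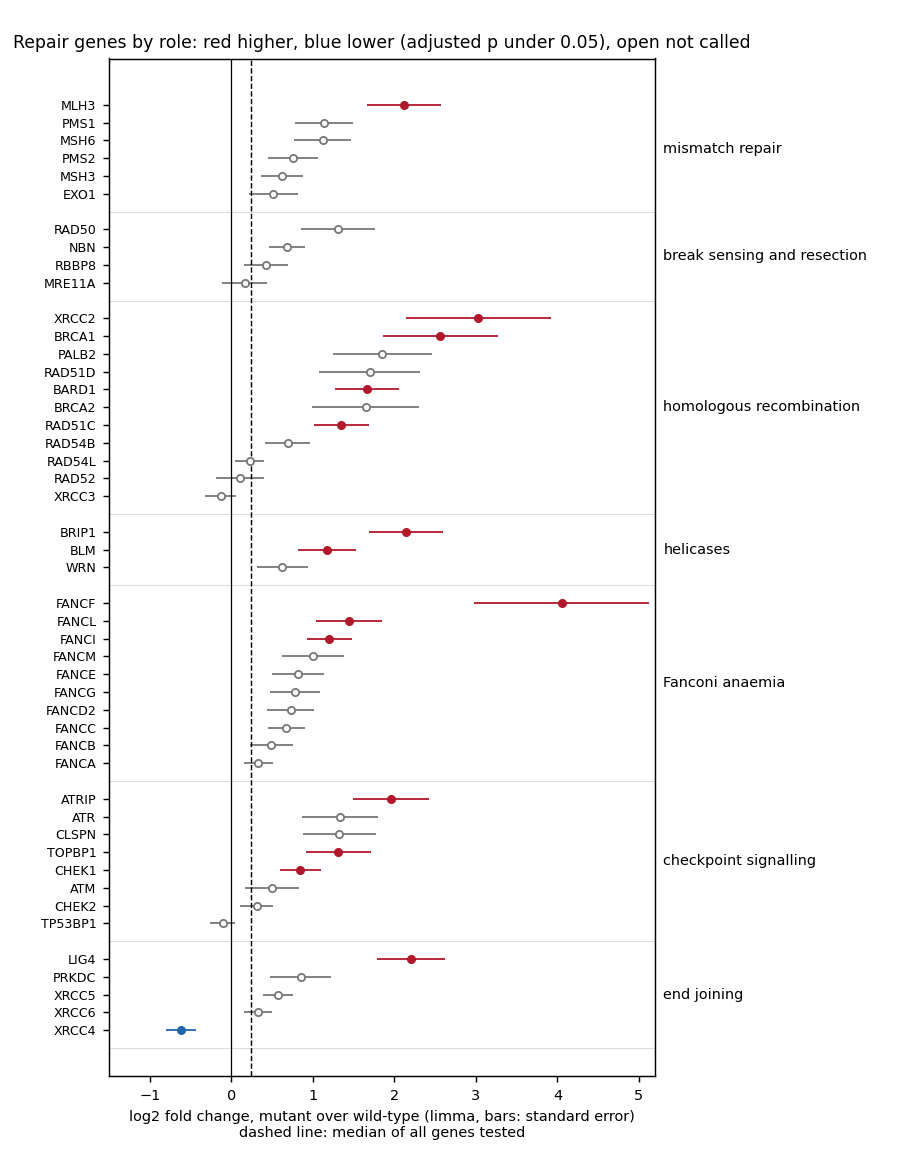
Log2 fold change of each of the 47 repair genes (x axis, mutant over wild-type, limma, bars are standard errors), grouped by role. Filled red points are the 14 called higher, the filled blue point is XRCC4, open points did not pass the test, and the dashed line is the median of all genes, 0.24; 41 of the 47 lie to its right.

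Of the 6 mismatch repair genes MLH3 rose (16.7%, against 17.3% of all genes) and none fell (against 10.0% of all genes). Their median log2 fold change was 0.94, against 0.24 over all genes. MLH3 is a MutL protein. It read 437, 181 and 190 normalized counts in wild-type samples 1, 2 and 3 and 629, 1417 and 1385 in mutant samples 1, 2 and 3. The lines did not overlap, and mutant sample 1 stood nearer to wild-type sample 1 than to the other mutant samples. The log2 fold change was 2.11 ± 0.45 (SE, limma adjusted p = 0.0404). MSH6, a MutS protein that recognises base mispairs, and PMS1, another MutL protein, came next with 1.12 and 1.14 and limma adjusted p of 0.0508 and 0.0506, and both were called by DESeq2. The others were PMS2, a MutL endonuclease (0.75), MSH3, which recognises larger loops (0.62), and the exonuclease EXO1 (0.51), and these did not pass the test. PMS2 has near-identical copies in the genome and MSH3 overlaps other annotated exon sequence, so their counts are uncertain. MSH6 shares 34 exon bases with FBXO11 on the opposite strand.

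None of the 4 genes of break sensing and resection passed the test with limma, against 17.3% of all genes called higher and 10.0% lower. Of the 4 genes 2 had an unadjusted p under 0.05, beside 7288 of all 14539 genes. DESeq2 called 1 of them higher, RAD50 (21.7% of all genes). NBN, the subunit of the MRE11 complex that recruits ATM, had the smallest p. NBN read 2295, 1731 and 1424 normalized counts in wild-type samples 1, 2 and 3 and 2402, 3261 and 3011 in the mutant samples. The lines did not overlap, but wild-type 1 and mutant 1 lay close together, and the log2 fold change was 0.69 ± 0.22 (SE, limma adjusted p = 0.0537). The value of RAD50, the ATPase of the complex, was 1.30, that of RBBP8, which starts resection, 0.43, and that of the nuclease MRE11A 0.16, the last negative with edgeR (-0.09), DESeq2 (-0.10) and TMM factors (-0.07).

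Homologous recombination held 11 genes, of which 4 rose (36.4%), none fell and 7 did not pass the test. Of all genes 17.3% rose and 10.0% fell. The median of the 11 genes was 1.65, against 0.24 over all genes. BRCA1 (chr17:41196312-41322262 on hg19) directs ends towards resection and recombination. It read 1419, 261 and 318 normalized counts in wild-type samples 1, 2 and 3 and 1414, 4207 and 4130 in the mutant samples. Wild-type 1 and mutant 1 were nearly equal, and the other samples differed by 4.01 (number 2) and 3.69 (number 3) on the log2 scale. Its log2 fold change was 2.57 ± 0.70 (SE, limma adjusted p = 0.0433), and the call was lost with edgeR (adjusted p = 0.0513). BARD1, the ubiquitin ligase partner of BRCA1, read 477, 226 and 216 in the wild-type and 602, 1151 and 1080 in the mutant samples, and its log2 fold change was 1.66 ± 0.39 (SE, limma adjusted p = 0.0410). BARD1 showed no overlap between the lines. RAD51C and XRCC2 help to stabilise the protein filament on the resected strand. RAD51C read 1360, 975 and 991 in the wild-type and 1645, 3535 and 3749 in the mutant samples, again without overlap, with a log2 fold change of 1.35 ± 0.34 (SE, limma adjusted p = 0.0413). XRCC2 read 217, 35.4 and 30.0 in the wild-type and 183, 903 and 801 in the mutant samples. Mutant 1 lay below wild-type 1 for XRCC2, its log2 fold change was 3.03 ± 0.89 (SE, limma adjusted p = 0.0462), and edgeR did not call it (adjusted p = 0.0558).

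Among the recombination genes that did not pass the test, BRCA2, PALB2 and RAD51D had a sample more than 2-fold from the mean of its own line. BRCA2, which acts on the resected strand, read 1273, 321 and 251 normalized counts in wild-type samples 1, 2 and 3 and 766, 2092 and 1969 in the mutant samples (log2 fold change 1.65 ± 0.66, SE, limma adjusted p = 0.0861). PALB2, the bridge between BRCA1 and BRCA2, read 485, 145 and 141.6 in the wild-type and 384, 1129 and 1094 in the mutant samples (1.85 ± 0.60, limma adjusted p = 0.0545). RAD51D, which acts with RAD51C and XRCC2, read 173, 66.5 and 49.96 in the wild-type and 125, 389 and 412 in the mutant samples (1.70 ± 0.62, limma adjusted p = 0.0689). In all 3 genes mutant 1 was below wild-type 1, while mutant 2 and 3 were far above wild-type 2 and 3, and DESeq2 called PALB2 and RAD51D. The values were smaller for RAD54B (0.69), RAD54L (0.22), RAD52 (0.10) and XRCC3 (-0.13). RAD54L and RAD52 turned slightly negative with edgeR (-0.01 and -0.09), and with DESeq2 (-0.02 and -0.10) and TMM factors (-0.01 and -0.13). RAD54L shares 566 exon bases with LRRC41 on the opposite strand, so its counts are uncertain.

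Of the 3 helicases 2 rose (66.7%, against 17.3% of all genes) and none fell (against 10.0% of all genes). Their median was 1.18, against 0.24 over all genes. BRIP1, whose promoter is shown above with its 3 CCAAT matches, unwinds DNA in partnership with BRCA1. It read 748, 365 and 326 normalized counts in wild-type samples 1, 2 and 3 and 1079, 2775 and 2577 in the mutant samples. BRIP1 showed no overlap, and its log2 fold change was 2.14 ± 0.45 (SE, limma adjusted p = 0.0404). BLM, which dissolves recombination intermediates and also has 3 CCAAT matches, read 664, 555 and 506 in the wild-type and 730, 1729 and 1708 in the mutant samples. The lines did not overlap for BLM either, with a log2 fold change of 1.18 ± 0.35 (SE, limma adjusted p = 0.0474), and TMM factors moved its adjusted p to 0.0503. The third, WRN, a helicase with an exonuclease domain, had 0.63 and did not pass the test.

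Of the 10 Fanconi anaemia genes 3 rose (30%, against 17.3% of all genes) and none fell (against 10.0% of all genes). Their median was 0.80, against 0.24 over all genes. FANCF (chr11:22644079-22647369 on hg19), an adaptor of the core complex, read 20.9, 6.91 and 0 normalized counts in wild-type samples 1, 2 and 3 and 48.1, 121 and 132 in the mutant samples. These values came from 17, 8 and 0 reads in the wild-type and 76, 109 and 124 reads in the mutant samples, so the wild-type values rest on few reads. The lines did not overlap, and the log2 fold change of 4.05 ± 1.07 (SE, limma adjusted p = 0.0425) depended on the pseudocount at such levels, with 3.16 from edgeR and 3.21 from DESeq2. FANCI, which is ubiquitinated together with FANCD2, read 3633, 2331 and 2333 in the wild-type and 4349, 7475 and 7366 in the mutant samples. Its log2 fold change was 1.20 ± 0.28 (SE, limma adjusted p = 0.0404), without overlap of the lines. FANCL, the ubiquitin ligase of the core complex, read 304, 201 and 243 in the wild-type and 357, 949 and 891 in the mutant samples, again without overlap (1.44 ± 0.41, SE, limma adjusted p = 0.0438). FANCI shares exon sequence with POLG, FANCL with VRK2 and FANCA with ZNF276 (1328 bases), each on the opposite strand. Whether counting used strand is not stated in the sources used here. The other core complex genes FANCA (0.33), FANCB (0.49), FANCC (0.67), FANCE (0.82), FANCG (0.78) and FANCM (1.00), and FANCD2 (0.73), did not pass the test. FANCC, with its E2F letters shown above, did not overlap between the lines, and FANCD2 has near-identical copies in the genome.

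**Figure D2:**
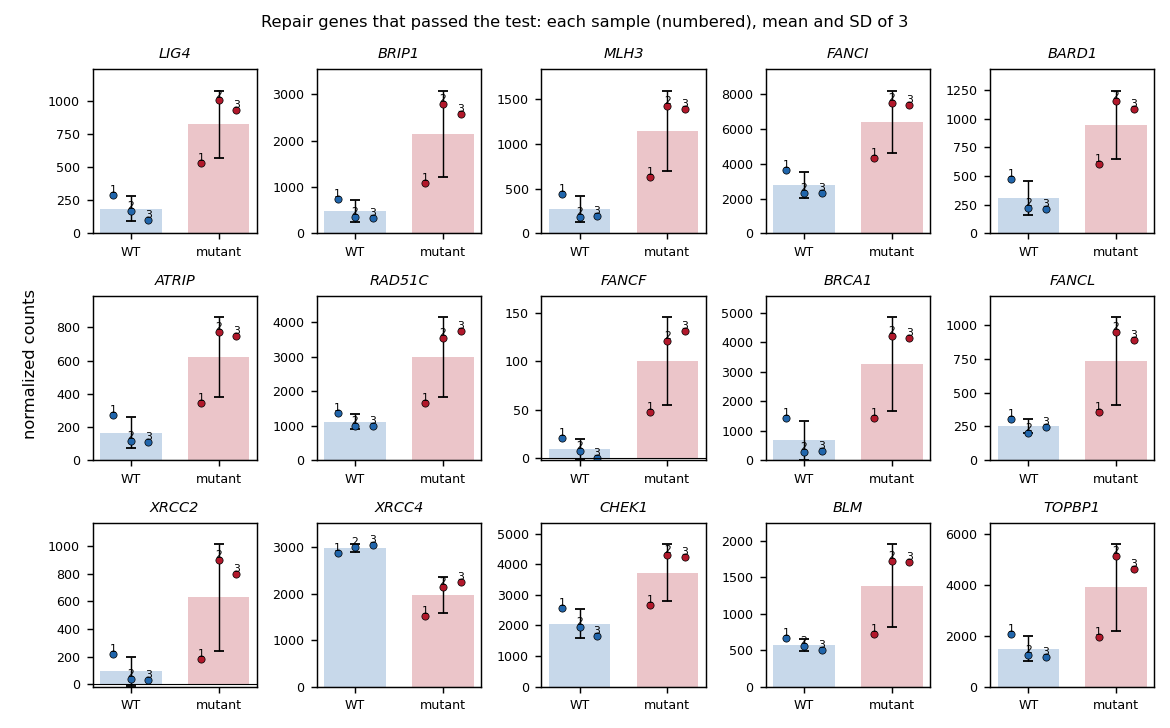
Normalized counts (y axis) of the 15 genes that passed the test, with bars at the mean of 3 samples and error bars of 1 SD. Each sample is a numbered point. The y axis starts at 0 except for XRCC2 and FANCF, where the wild-type error bar reaches below 0. Wild-type samples are blue and mutant samples red. Mutant samples 2 and 3 stand together, and mutant 1 lies below them in every panel.

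Of the 8 checkpoint genes 3 rose (37.5%, against 17.3% of all genes) and none fell (against 10.0% of all genes). Their median was 1.08, against 0.24 over all genes. ATRIP, which brings ATR to single-stranded DNA, read 271, 114 and 108 normalized counts in wild-type samples 1, 2 and 3 and 345, 770 and 748 in the mutant samples. The lines did not overlap for ATRIP, its log2 fold change was 1.96 ± 0.47 (SE, limma adjusted p = 0.0410), and it shares 1096 exon bases with TREX1 on the same strand. CHEK1, the kinase that ATR activates, read 2580, 1942 and 1669 in the wild-type and 2653, 4285 and 4245 in the mutant samples. Wild-type 1 and mutant 1 of CHEK1 were nearly equal, the log2 fold change was 0.84 ± 0.25 (SE, limma adjusted p = 0.0472), and the adjusted p was 0.0538 with edgeR and 0.0517 with TMM factors. TOPBP1, the activator of ATR, read 2082, 1242 and 1174 in the wild-type and 1959, 5124 and 4637 in the mutant samples. Mutant 1 of TOPBP1 lay below wild-type 1, and the log2 fold change was 1.31 ± 0.40 (SE, limma adjusted p = 0.0490). CLSPN, the adaptor through which ATR reaches CHEK1, had a sample more than 2-fold from its line mean. CLSPN read 2238, 1149 and 1192 in the wild-type and 1862, 5323 and 4870 in the mutant samples (1.32 ± 0.45, SE, limma adjusted p = 0.0590). The kinases ATR (1.33), ATM (0.50) and CHEK2 (0.31) and the chromatin-bound adaptor TP53BP1 (-0.11) did not pass the test. DESeq2 also called ATR and CLSPN, TP53BP1 shares exon sequence with TUBGCP4 on the opposite strand, and CHEK2 has near-identical copies in the genome.

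End joining was the only role with calls in both directions. Of its 5 genes 1 was higher (20%, against 17.3% of all genes) and 1 lower (against 10.0% of all genes). LIG4 (chr13:108859787-108870716 on hg19), the ligase that seals the ends, read 287, 166 and 105 normalized counts in wild-type samples 1, 2 and 3 and 531, 1005 and 925 in the mutant samples. The lines did not overlap, and the log2 fold change was 2.20 ± 0.42 (SE, limma adjusted p = 0.0376). XRCC4 (chr5:82373317-82649606 on hg19) is the protein on which LIG4 is held and stabilised. It read 2888, 3008 and 3058 in the wild-type and 1529, 2141 and 2244 in the mutant samples. All mutant samples of XRCC4 lay below all wild-type samples, and its log2 fold change was -0.62 ± 0.18 (SE, limma adjusted p = 0.0472), with an adjusted p of 0.0521 when low genes were not filtered and of 0.0370 with edgeR. The difference between mutant 1 and wild-type 1 was -0.92 for XRCC4 and 0.88 for LIG4. The Ku subunits XRCC5 (0.58) and XRCC6 (0.32) and the kinase PRKDC (0.85) did not pass the test, although the lines did not overlap for XRCC5.

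The genes differed in level. Counted as the mean of the 6 samples per kilobase of the canonical transcript, XRCC6 was highest at 16945 normalized counts, followed by XRCC5 (6281), PRKDC (1736), XRCC4 (1547) and CHEK2 (1069). FANCF was lowest at 16.6, then RAD51D (20.3) and MSH3 (39.4). The end joining genes therefore took most of the summed level of the list.

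The samples showed 1 pattern across the roles. Wild-type 1 was the highest wild-type sample in 43 of the 47 genes (91.5%, against 62.3% of all genes) and mutant 1 the lowest mutant sample in 47 of 47 (against 56.6% of all genes). Mutant 1 was below wild-type 1 in 31 genes (66.0%, against 55.6% of all genes), while mutant 2 was below wild-type 2 and mutant 3 below wild-type 3 in 3 genes each (6.38%, against 37.6% and 38.2% of all genes). The median difference over the 47 genes, mutant minus wild-type on the log2 scale, was -0.12 at number 1, 1.40 at number 2 and 1.35 at number 3, against -0.05, 0.39 and 0.39 over all genes. In 30 genes the difference was above 1 at both numbers 2 and 3, and the share over all genes is not given here. At number 1 only FANCF (1.17), LIG4 (0.88), BRIP1 (0.53) and MLH3 (0.52) were more than 0.5 higher in the mutant, and XRCC4 (-0.92), BRCA2 (-0.73), RAD52 (-0.63) and MRE11A (-0.59) more than 0.5 lower. The 4 that were higher were all called, and of the 4 that were lower XRCC4 was. What set the samples numbered 1 apart was not tested.

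**Figure D3:**
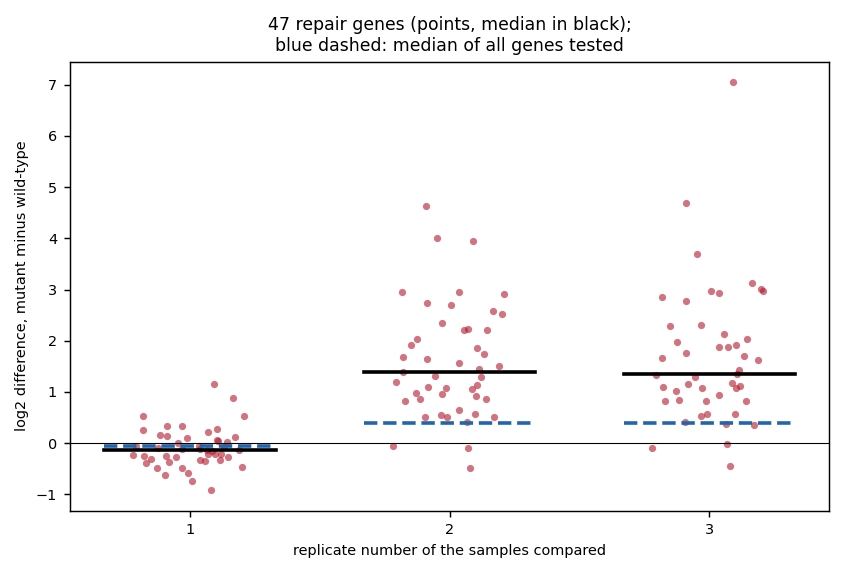
Log2 difference of each of the 47 repair genes (points) between the mutant and the wild-type sample of the same number (x axis), with the median of the genes in black and that of all genes dashed blue. The median of the repair genes is -0.12 at number 1, 1.40 at number 2 and 1.35 at number 3; the highest point at number 3 is FANCF, listed at 0 in wild-type 3.

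Summed over the 47 genes, the wild-type samples 1, 2 and 3 held 150064, 101335 and 101880 normalized counts and the mutant samples 135233, 209090 and 207160. Mutant samples 2 and 3 thus held 2.05 times the level of wild-type 2 and 3, and mutant 1 held 0.90 times that of wild-type 1. A list of 28 proliferation markers moved in the same samples. These held 157453, 114309 and 112968 in the wild-type and 173447, 229394 and 231842 in the mutant samples, a ratio of 2.03 for samples 2 and 3 and of 1.10 for the samples numbered 1. Of the 28 markers 15 were called higher (53.6%, against 17.3% of all genes) and none lower (against 10.0% of all genes). Their median log2 fold change was 0.81, against 0.24 over all genes. The 13 markers that did not pass the test included CCNB2 (-0.09), MKI67 (0.08), AURKB (0.09) and CCNE1 (0.12). With edgeR 12 of the 28 were called higher, against 12.3% of all genes. The part of the 28 markers in the repair gene result was not tested. In bulk RNA a larger number of cycling cells and more RNA in each cell cannot be told apart.

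**Figure D4:**
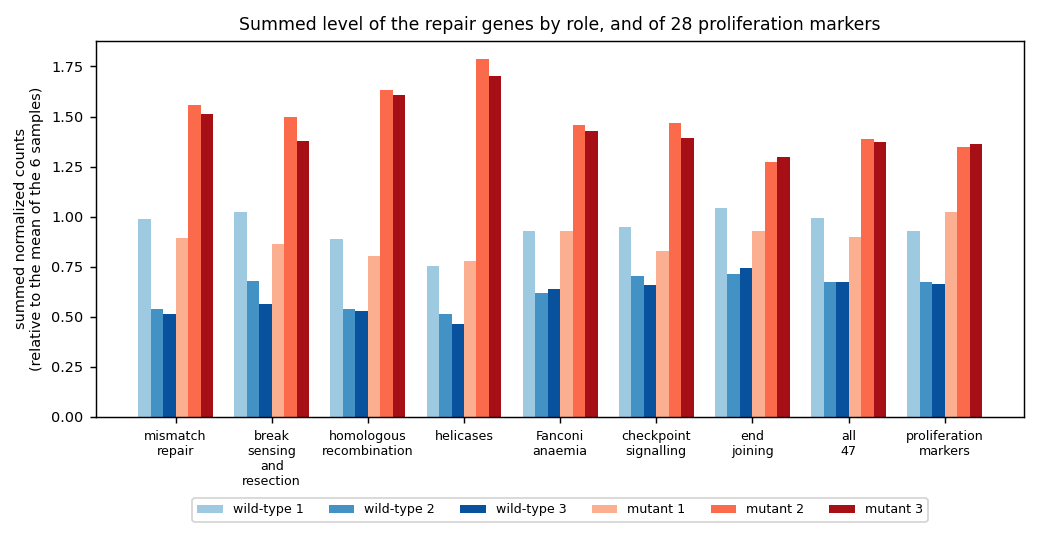
Summed normalized counts of the repair genes by role, of all 47 and of 28 proliferation markers, each divided by its mean over the 6 samples (y axis, from 0). Blue bars are wild-type and red bars mutant samples 1, 2 and 3. In every role mutant samples 2 and 3 are highest and wild-type samples 2 and 3 lowest, with both samples numbered 1 between them.

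The genes lay on 18 chromosomes, with at most 5 on any of them (chromosome 2). Compared with the median of the 10 tested genes on each side, 37 of the 47 had the higher log2 fold change. The share over all genes is not given here. The neighbour medians ran from -0.59 to 0.91 with a median of 0.43. Between the samples numbered 1 the neighbour medians ran from -0.23 to 0.54, and were above 0.4 only around LIG4 (0.54), BRIP1 (0.51) and RAD51C (0.44), themselves 3 genes that rose.

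A second list held 166 other repair genes that are not among the 47. Of these 163 were present and 161 were tested. Among the 161, 39 rose (24.2%, against 17.3% of all genes), 8 fell (against 10.0% of all genes) and 114 did not pass the test. The median of the 161 genes was 0.43 against 0.24 over all genes. Their summed level was 1.54 times higher in mutant 2 and 3 than in wild-type 2 and 3, and 1.00 times that of wild-type 1 in mutant 1. In each part of this list the called gene with the smallest p is named. Of 37 other genes of double-strand break repair 11 rose (29.7%) and 2 fell. The smallest p belonged to FIGNL1 (0.90 ± 0.20), an ATPase, and SWI5 (-0.70 ± 0.16), a recombination cofactor (SE, both limma adjusted p = 0.0404). Of 17 other Fanconi and crosslink genes 5 rose (29.4%) and none fell, led by STRA13, which helps FANCM to bind DNA (1.14 ± 0.23, SE, limma adjusted p = 0.0404). Of 15 other mismatch repair genes 7 rose (46.7%) and 1 fell. Here the genes were RFC5 of the clamp loader (1.06 ± 0.24) and POLD4, a subunit of DNA polymerase δ (-1.15 ± 0.25, SE, both limma adjusted p = 0.0404). Of 27 other checkpoint genes 3 rose (11.1%, below the 17.3% of all genes) and 2 fell. Those named are TIMELESS of the replication fork (0.81 ± 0.18, limma adjusted p = 0.0404) and UIMC1, which recruits BRCA1 to ubiquitin (-0.65 ± 0.20, SE, limma adjusted p = 0.0473).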

How the data were processed

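RNA of 3 wild-type and 3 mutant HCT116 samples was sequenced by the authors. The methods state that a Ribo-Zero kit depleted ribosomal RNA, whereas the molecule label says polyA RNA. Reads were mapped to hg19 with TopHat2 2.1.0, and the processing notes also name CASAVA 1.8.2, HTSeq and DESeq, whose versions, gene annotation and strand setting are not given in the sources used here. The deposited signal values are read counts by gene, scaled by the authors with 1 size factor for each sample, and 100% of them were whole multiples of 1 read within 0.001. The log2 ratios and adjusted p-values in the deposited table are the authors' own comparison and were not used.

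Genes with a mean of at least 10 were tested with limma 3.58.1 (eBayes with a trend, R 4.3.3) on log2(value + 1), a scale that depends on the pseudocount at low values, with Benjamini-Hochberg adjustment over all 14539 genes and calls at an adjusted p under 0.05. A positive log2 fold change means a higher value in the mutant line. Alternatives were edgeR 4.0.16 (quasi-likelihood) and DESeq2 1.42.0 on the recovered reads, TMM factors, no filter, a pseudocount of 10, a replicate block and leaving out samples. The fits were tested on simulated counts in which no sample stood apart from its group. That test does not cover the spread of the samples numbered 1. Symbols were matched to GENCODE 44 on GRCh37 and to RefSeq. Positions came from the former. Per-sample values are given for every called gene, for the smallest p in a role without one, and for up to 5 others with a sample more than 2-fold from its line mean. The 47 genes and all lists were chosen with earlier results of these data known. A few listed genes are not reported here.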

Additional observations from a re-analysis of the deposited data

How the results depend on the processing

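With edgeR, DESeq2, TMM factors and a pseudocount of 10, the count of the 47 genes called higher was 11, 21, 14 and 16, beside 1783, 3154, 2173 and 2659 of all genes, and 1 was called lower in each. Without a filter limma called 14 higher and 0 lower, beside 2416 higher and 1461 lower of all 18236 genes. XRCC4 was no longer called there, since its limma adjusted p moved to 0.0521. At an unadjusted p under 0.05 were 33 of the 47 (32 of them higher), beside 7888 of all genes in either direction. DESeq2 called 59 of the other repair genes higher and 16 lower, beside 3154 of all genes higher and 2999 lower. With both samples numbered 1 left out, 44 of the 47 were higher, as were 113 of the other repair genes (20 lower) and 7736 of all genes (4226 lower). Leaving out each sample in turn gave 0 to 35 of the 47 higher and 0 to 1 lower, 0 to 89 other repair genes higher and 0 to 13 lower, and 0 to 5187 of all genes higher and 0 to 3098 lower. MRE11A reversed to -0.0934 with edgeR, -0.0998 with DESeq2 and -0.0708 with TMM factors, and ran from -0.0465 (without wild-type sample 3) to 0.420 as each sample was left out. RAD52 reversed to -0.0888, -0.0974 and -0.131 with the same tools, and ran from -0.0701 (without mutant sample 2) to 0.419, with -0.0434 without mutant sample 3. RAD54L reversed to -0.0107, -0.0192 and -0.0104 with edgeR, DESeq2 and TMM factors. XRCC3 ran from -0.221 to 0.0132 and TP53BP1 from -0.168 to 0.0083, both reversed without mutant sample 1. The cause of these changes was not tested.

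The deviations of same-numbered samples from their line means correlated at -0.53, -0.43 and -0.31. With 3 samples in a line such deviations depend on each other. These correlations therefore cannot decide whether same-numbered samples share a factor. With the replicate block limma called 0 of the 47 genes higher and 0 lower, 0 other repair genes and 0 of all genes in either direction, with 12 of the 47 and 4305 of all genes at an unadjusted p under 0.05. Neither edgeR nor DESeq2 was run with the block. FANCF had at most 17 reads in a wild-type sample, so counting error is largest there.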

Other observations

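The remaining repair pathways of the second list work on damage within a single strand. Base excision repair cuts out chemically altered bases, and of its 26 genes tested, single-strand break repair included, 7 rose (26.9%, against 17.3% of all genes) and 1 fell, with a median log2 fold change of 0.26 against 0.24 over all genes. HMGB1 had the smallest p of those higher (0.89 ± 0.17, SE, limma adjusted p = 0.0389) and PARP2, a polymerase of ADP-ribose at strand breaks, was the gene that fell (-1.004 ± 0.25, SE, limma adjusted p = 0.0413). HMGB1 has many near-identical copies in the genome, so its counts are uncertain. PARP2 read 6842, 8673 and 8868 normalized counts in wild-type samples 1, 2 and 3 and 5865, 3386 and 3287 in the mutant samples, so mutant 2 and 3 were the low samples.

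Nucleotide excision repair removes bulky lesions such as those made by ultraviolet light, and of its 23 genes tested 4 rose (17.4%, against 17.3% of all genes) and 2 fell, with a median of 0.24, the same as over all genes. ERCC8, which acts where RNA polymerase has stalled, had the smallest p of those higher (1.78 ± 0.45, SE, limma adjusted p = 0.0413), and ERCC2, a helicase of TFIIH, of those lower (-0.74 ± 0.16, SE, limma adjusted p = 0.0404). ERCC2 read 3244, 3419 and 3489 in the wild-type and 2363, 1963 and 1785 in the mutant samples, without overlap. Of 16 genes of translesion synthesis and direct reversal 2 rose (12.5%) and none fell with limma, led by UBE2N (0.77 ± 0.21, SE, limma adjusted p = 0.0435), and edgeR called 0 of the 16 while DESeq2 called 4.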
